A study of Mus musculus with 4 samples.

Results

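Collagen genes were examined in mouse embryonic fibroblasts (MEFs), connective tissue cells derived from C57BL/6J mice and cultured at low and at high cell density. The members are all probes outside the array's control spots whose gene name has the form of a collagen chain, Col followed by a number, the letter a and a second number, which gave 40 genes on 81 probes among 27745 genes on 41174 probes in all. The labels name 2 genotypes, Lats2-/- (KO) and Lats2+/+ (WT), in the same strain; LATS2 is a kinase of the Hippo pathway, and the study asked how its loss bears on contact inhibition, the slowing of growth in crowded cultures. Low-density cells were sampled subconfluent after 48 h and high-density cells after 3 to 5 days, so density and time in culture cannot be told apart. Each genotype was measured on 2 two-colour arrays, with high-density RNA in Cy5 and low-density RNA in Cy3 on array 1 and the dyes exchanged on array 2. The pair was taken as a technical dye swap and counts as 1 replicate per genotype, so that every value below is a difference between cultures with no replicate check and no p-value; the labels give neither the number of embryos nor of cultures, and write the gene in the source name as LAT2.

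Collagens are secreted proteins in which chains wind around each other into a long helix, and most types need chains from several genes. Fibrillar collagens (types I, II, III, V, XI, XXIV and XXVII) build the cable-like fibrils of tendon, skin and bone, with type I as the main product of fibroblasts and type V acting at the start of fibril assembly. Type IV collagen forms the sheet-like network of basement membranes, and fibril-associated collagens such as types XII and XIV sit on the surface of fibrils. The remaining types include the beaded microfilaments of type VI, the anchoring fibrils of type VII, the lattice-forming type VIII, membrane-bound collagens such as types XIII, XVII, XXIII and XXV, and types XV and XVIII, which lie near basement membranes. By these roles the members fell into 11 fibrillar, 6 basement membrane, 9 fibril-associated and 14 other genes.

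All 7 fibroblast markers listed, among them Vim, Pdgfrb and Thy1, were well above background in every group. Of 5 endothelial markers, Pecam1, Cdh5, Tek and Tie1 were above background in 0 of the 8 channels, and of 6 epithelial markers this held for Cdh1, Krt8 and Epcam. The labelled deletion could not be read from the target itself, since 3 of 4 Lats2 probes were higher on the arrays labelled KO, by 0.91 to 1.49 on the log2 scale, and 1 probe was lower, at -0.63 at low and -1.26 at high density; KO and WT are used here as the labels give them. Per channel, 52.8% to 67.7% of spots outside controls passed the scanner's background test, and 0 were saturated. Both WT arrays shared a slide and each KO array had a slide of its own, so slide and genotype cannot be told apart, whereas each density effect was measured within an array. KO array 1 had the most spots above background, 62.6% in Cy3 and 67.7% in Cy5, with 52.8% to 56.2% on the other arrays. Before the correction for dye and brightness the arrays split by dye orientation: the median log2 ratio of high over low density in the brightest 10% of probes was 0.58 and 0.81 on array 1 of KO and WT and -1.63 and -1.31 on their arrays 2, and after it the 4 values were between -0.01 and 0.03.

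Levels are given as normalized log2 signal of a gene's brightest probe, first Cy3 and then Cy5, and differences as the mean over both arrays or both dyes. A gene was counted as called when that mean was at least 2-fold (1 on the log2 scale) and both arrays or dyes had the same sign. Of the 40 collagen genes, 23 were well above background in all 8 channels, 33 could be compared in at least 1 of the contrasts and 28 were called in at least 1. The 7 that could not be compared were Col4a3, Col9a1, Col9a3, Col13a1, Col22a1, Col25a1 and Col28a1. Of these, Col4a3, Col9a1 and Col13a1 were above background in 0 channels.

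Density moved collagen genes in both genotypes, and mostly upward. In WT cells 8 of 29 measured collagen genes were higher and 3 lower at high density (37.9% called, against 15.5% of all 14875 genes, 9.41% higher and 6.09% lower), with a median of 0.50 beside 0.06 over all genes. In KO cells 13 of 33 were higher and 2 lower (45.5%, against 11.0% of 15432 genes, 7.14% higher and 3.88% lower), with a median of 0.60 beside 0.06. The error of a mean over both arrays, taken as the root mean square of each array's distance from that mean over all probes compared, was 0.0999 in WT and 0.145 in KO and covers technical spread only. Of the 29 genes measured in both genotypes, 6 were called in the same direction, namely Col3a1, Col6a1, Col6a2, Col7a1, Col11a1 and Col14a1, and 2 in opposite directions, Col5a1 and Col8a1. The same counts over all genes were not made, so whether these are usual is not known. The density effect itself differed between genotypes by at least 2-fold for 9 of 29 genes (31.0%, against 9.53% of 14170 genes). Of these, 6 were more positive in KO (4.56% of all genes) and 3 more negative (4.98%), a split that was 6 and 5 with median centring of each array in place of the correction for dye and brightness. Markers of other cell types moved with density as well. Of the Schwann cell markers reported here, S100b had a density effect of 4.46 in WT and 1.98 in KO, and Sox10 was above background in 2 of 8 channels. Of 4 skeletal muscle markers, Actc1 had -2.17 in WT and -0.81 in KO, and the summed signal was 26500 to 33300 in WT low, 5660 to 8090 in WT high, 24800 to 36100 in KO low and 13600 to 21400 in KO high channels, with Myog and Des above background in 0 channels. That sum is nearly all Actc1, since Myod1, Myog and Des read 5.82 to 6.20 on the log2 scale, and it is no separate measure. The part of these Schwann cell and muscle markers in the collagen values was not tested.

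**Figure D1:**
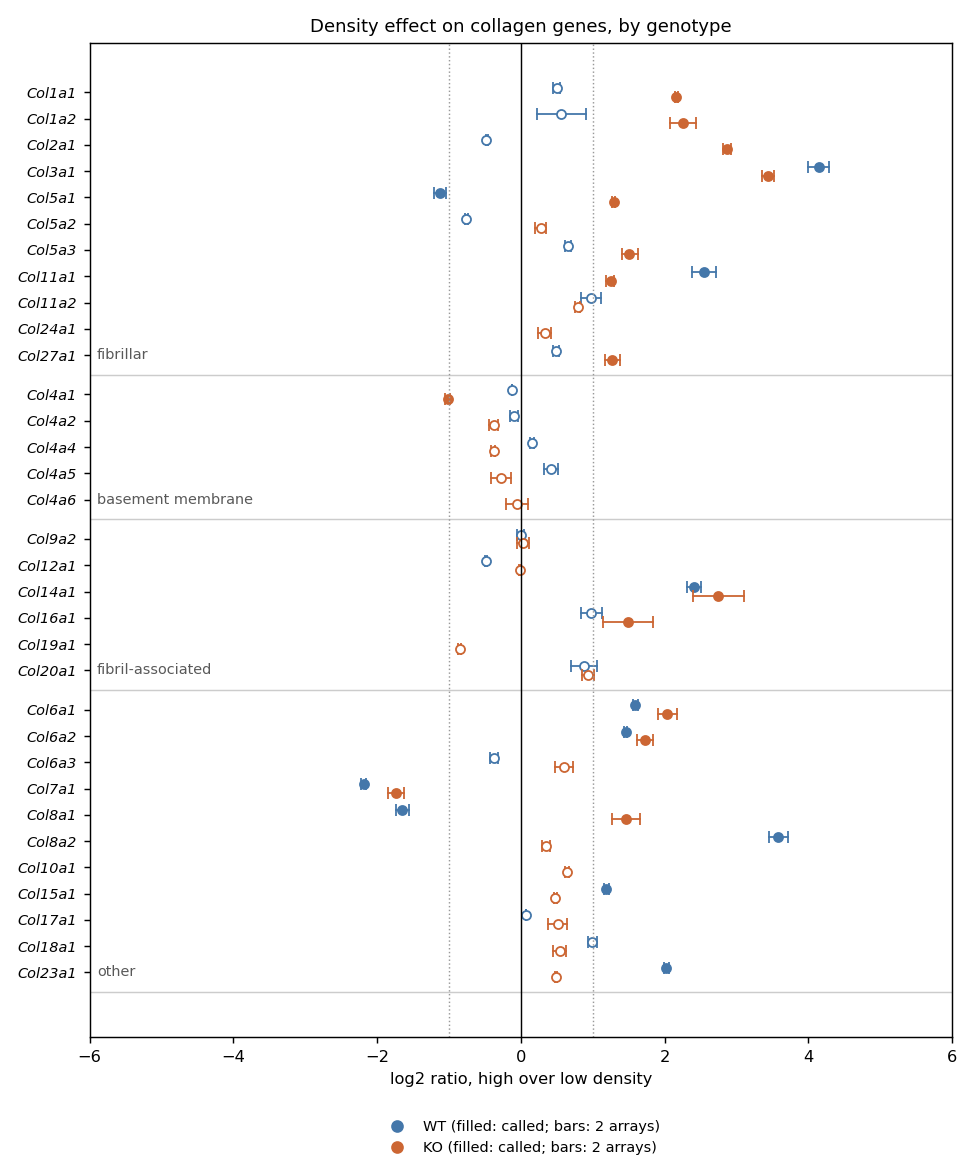
Density effect on each collagen gene measured in at least 1 genotype, as the log2 ratio of high over low density (x axis), with genes grouped by class. Circles are the mean of the 2 arrays of WT (blue) or KO (orange) cells, filled where called, bars join the 2 arrays, and dotted lines mark 2-fold (genes with only a bound are drawn at their measured ratio); the 11 fibrillar genes all lie to the right of 0 in KO cells, while Col5a1 and Col8a1 lie on opposite sides in the genotypes.

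All 11 fibrillar genes had a positive density effect in KO cells and 8 were called higher (against 7.14% of all genes), with a median of 1.29. In WT cells 2 of 10 were higher and 1 lower (against 9.41% and 6.09%), with a median of 0.53. Type I collagen, the main fibril of skin and bone, is made from Col1a1 and Col1a2, and both chains were called higher in KO and not in WT. Col1a1 (brightest probe on chromosome 11, 94767851 to 94767910, plus strand, mm8) read 15.51 and 15.51 at low and 16.06 and 15.96 at high density in WT, and 14.62 and 14.93 at low and 17.07 and 16.80 at high density in KO. On this probe the KO levels were below WT at low density and above WT at high density in both dyes, without overlap; the other 2 probes gave -0.07 and 0.23 for KO minus WT at low density. The density effect was 0.50 in WT and 2.16 in KO, a 4.47-fold rise in KO, and the genotypes differed by 1.66. Col1a2 (chromosome 6, 4490619 to 4490678, plus strand) read 16.37 and 16.88 at low and 17.10 and 17.28 at high density in WT, and 15.13 and 16.13 at low and 18.19 and 17.56 at high density in KO. Its density effect was 0.56 in WT and 2.25 in KO, close to those of its partner chain, and the difference of 1.69 passed 2-fold on this probe. With the mean of both Col1a2 probes the KO effect was 1.15 and the difference 0.89, which was not called.

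Type III collagen, which mixes with type I in extensible tissues, rose in both genotypes. Col3a1 (chromosome 1, 45293290 to 45293349, plus strand) went from 12.21 and 12.75 to 16.75 and 16.50 in WT and from 12.97 and 13.67 to 17.03 and 16.49 in KO. These were rises of 17.7-fold in WT and 10.8-fold in KO, by the brightest probe. With the mean of its 3 probes the effects were 2.16 and 1.90, both called. The high-density levels of the genotypes overlapped between dyes, and their difference there was 0.14.

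In type V collagen, Col5a1 (chromosome 2, 27859381 to 27859440, plus strand) fell in WT from 14.95 and 14.93 to 13.72 and 13.91 and rose in KO from 13.75 and 13.79 to 15.06 and 15.06. The effects were -1.13 in WT and 1.29 in KO, a difference of 2.41 between them. The arrays gave -1.04 and -1.21 in WT and 1.31 and 1.27 in KO, so the opposed signs held on each array. A second Col5a1 probe gave -0.56 and 0.70, and with the mean of both probes the effects were -0.84 and 0.99, neither called. Col5a2, whose product joins Col5a1 in the common form of type V, had values of -0.76 in WT and 0.28 in KO, neither called, while their difference of 1.04 was. That call was at the limit of the rule, with 0.80 under median centring, where the WT effect was -1.01, and 0.97 without KO array 2. Col5a3, a less widespread chain of the type, read 10.67 and 10.78 at low and 11.39 and 11.37 at high density in WT but 6.60 and 6.28 at low and 7.90 and 8.01 at high density in KO. It rose 2.86-fold with density in KO and stayed under every WT value. That KO effect of 1.51 on the log2 scale was 2.99 with the scanner's own corrected signals, and its difference from WT, 0.86 and not called, was 1.12 with median centring, 1.34 with a background offset of 16 and 2.28 with the scanner's signals, each called.

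**Figure D2:**
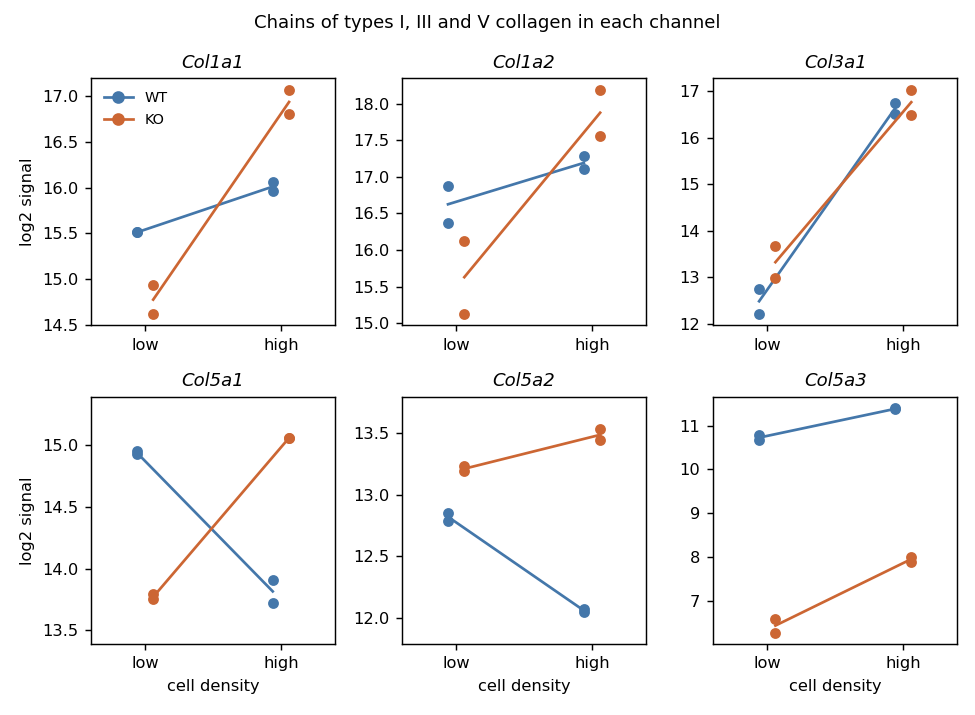
Normalized log2 signal (y axis, a separate scale per gene) of type I, III and V collagen chains at low and high density (x axis). Points are single channels, 2 dyes per group, lines join the group means, blue is WT and orange KO; the WT and KO lines cross for Col1a1, Col1a2 and Col5a1, run together for Col3a1 and stay apart for Col5a3.

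Among the cartilage-type fibrillar genes, Col2a1, the main collagen of cartilage, read 12.84 and 12.76 at low and 12.29 and 12.35 at high density in WT, and 9.83 and 9.31 at low and 12.12 and 12.74 at high density in KO. It rose 7.28-fold in KO, with -0.48 in WT, and the genotypes differed by 3.34. A second Col2a1 probe that overlaps the first, at 97804108 to 97804167 on chromosome 15, gave -1.88 in WT and 0.10 in KO, so the KO rise rests on 1 probe, although the difference of 1.99 kept its sign. Of the cartilage markers, Hapln1, Matn1 and Matn3 were above background in 0 channels, Acan in 4 of 8, and Sox9 in all 8, with a density effect of 1.47 in WT and 0.87 in KO. Comp, above background in 6, read 6.92 and 6.74 at low and 7.71 and 7.75 at high density in WT and 6.13 to 6.24 in KO. The summed signal of the 7 cartilage markers was 1040 to 1180 in WT low, 2290 to 2330 in WT high, 1230 to 1350 in KO low and 1860 to 2110 in KO high channels, and its part in the Col2a1 values was not tested.

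Col11a1, a chain of type XI collagen found within cartilage fibrils and in other tissues, rose in both genotypes, from 10.91 and 11.05 to 13.43 and 13.62 in WT and from 12.58 and 12.79 to 13.98 and 13.88 in KO. The rise was 5.85-fold in WT and 2.37-fold in KO, and the difference of -1.30 passed 2-fold. With the mean of its 3 probes the KO effect was 0.73 and the difference -0.97, neither called. Its partner Col11a2 had 0.98 in WT and 0.79 in KO, neither called. Col27a1 rose 2.41-fold in KO. In WT its low-density channels were not well above background, so that its WT effect is a bound of at least 1.4-fold. With the scanner's own corrected signals the effects were 3.27 in WT and 2.07 in KO, both called, and the difference turned from 0.78 to -1.19.

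The KO rises depended on the correction for dye and brightness. With median centring alone, Col1a2 gave 2.96 on KO array 1 and -0.13 on KO array 2, Col1a1 2.72 and 0.15, and Col5a1 1.87 and -0.47, so that Col1a2, Col5a1 and Col11a1 were no longer called in KO and 5 of 11 fibrillar genes were, beside 2 higher and 2 lower of 10 in WT. Without KO array 2 the count of fibrillar genes called higher in KO was 8. With the scanner's own dye-corrected signals, Col1a2 gave 2.43 and 2.27 and Col5a1 1.39 and 1.29.

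Promoter sequence was compared for fibrillar genes with different density patterns. RefSeq windows of 250 bases before to 50 after the annotated start (GRCm38.p6, a build other than the mm8 of the probe positions) were at hand for 32 of the 40 genes. Below are the 100 bases before the start of Col1a2 (chr6:4505518-4505617, plus strand), called in KO and not in WT, and of Col3a1 (chr1:45311438-45311537, plus strand), called in both, 5′ to 3′ and in lower case because none of the motifs searched lies in them.
Col1a2: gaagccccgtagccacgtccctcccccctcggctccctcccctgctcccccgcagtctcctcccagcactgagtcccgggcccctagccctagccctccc
Col3a1: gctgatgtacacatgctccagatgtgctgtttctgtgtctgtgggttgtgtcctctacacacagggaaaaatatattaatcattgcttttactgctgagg
The Col1a2 stretch was 74% G or C and the Col3a1 stretch 43%. Over the whole windows and both strands, GGGCGG, the core of the GC box, was found in 19 of 32 collagen genes (59.4%, against 38.2% of all 27025 genes). TATAAA was found in 15.6% (15.7% of all genes), CCAAT in 37.5% (41.1%) and GGAATG, the motif of the Hippo-linked TEAD factors, in 15.6% (16.6%). The 5 collagen genes with GGAATG were Col3a1, Col4a6, Col6a2, Col18a1 and Col20a1. These matches describe letters in a window and not binding.

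Of the fibril-associated collagens, 1 of 5 measured genes was called higher with density in WT and 2 of 6 in KO (against 9.41% and 7.14% of all genes), and 0 were lower. Among genes above background in every channel compared, where Col14a1 drops out, 0 of 3 and 1 of 4 were called. With median centring 1 of 5 in WT and 1 of 6 in KO were higher. With the scanner's own corrected signals 3 of 5 were higher in WT, with Col16a1 and Col20a1 added. In KO those signals gave 3 of 6 higher and 1 lower. Col20a1 had 0.88 in WT and 0.93 in KO, neither called. It was called in both with the scanner's signals, at 1.66 in WT. Col14a1, which binds the surface of type I fibrils, was not well above background at low density in either genotype and read 8.45 and 8.81 in WT and 8.55 and 8.76 in KO at high density. It was at least 5.18-fold higher in WT and at least 5.38-fold higher in KO, and its high-density levels overlapped between genotypes. Col16a1 rose 2.81-fold in KO, with arrays at 1.14 and 1.84, and had 0.98 in WT. Its KO value was 0.98 without the dye and brightness correction and 0.87 with the mean of its 2 probes, not called in either case.

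Type VIII collagen, a lattice former of vessel walls and the cornea, is made from Col8a1 and Col8a2, and the 2 genes moved in different ways. Col8a1 (chromosome 16, 57548065 to 57548124, minus strand) fell in WT from 15.02 and 14.92 to 13.36 and 13.28 and rose in KO from 15.15 and 15.67 to 16.93 and 16.80. The effects were -1.65 and 1.46, a difference of 3.11 or 8.61-fold, and all 4 KO channels lay above all 4 WT channels. Its second probe gave -1.62 in WT and 0.99 in KO. Col8a2 (chromosome 4, 125816501 to 125816560, plus strand) rose 12.0-fold in WT, from 7.24 and 6.89 to 10.60 and 10.69, and read 11.13 and 11.21 at low and 11.62 and 11.42 at high density in KO. KO cells were therefore already above the WT high-density level at low density, and the density effects differed by -3.23. With median centring alone the Col8a1 rise in KO was 0.71 and not called.

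The promoters of this pair are shown because their products share a collagen type while their transcripts moved apart. Capitals mark GGGCGG or its reverse complement CCGCCC in the 100 bases before the start, 5′ to 3′, for Col8a1 (chr16:57754738-57754837, minus strand, GRCm38.p6) and Col8a2 (chr4:126286694-126286793, plus strand).
Col8a1: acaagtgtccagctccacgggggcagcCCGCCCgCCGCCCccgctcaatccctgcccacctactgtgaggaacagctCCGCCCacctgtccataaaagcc
Col8a2: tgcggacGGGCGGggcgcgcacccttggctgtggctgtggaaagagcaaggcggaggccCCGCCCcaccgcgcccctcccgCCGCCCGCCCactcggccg
Col8a1 held 3 copies and Col8a2 held 4, of which the last pair overlaps, and the stretches were 67% and 80% G or C. None of the other motifs searched lay in these bases.

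Type VI collagen showed a rise shared by both genotypes in 2 of its 3 main chains. Col6a1 went from 11.77 and 11.89 to 13.45 and 13.39 in WT and from 11.99 and 12.29 to 14.46 and 13.89 in KO, rises of 3.02-fold and 4.09-fold. Col6a2 rose 2.74-fold in WT and 3.31-fold in KO by its brightest probe. A second Col6a2 probe gave 0.96 in WT and 0.59 in KO on the log2 scale, both under 2-fold. The remaining chain, Col6a3, did not follow its partners, with 14.45 and 14.35 at low and 14.03 and 14.02 at high density in WT against 14.79 and 14.90 at low and 15.62 and 15.27 at high density in KO. Its effects were -0.37 in WT and 0.60 in KO, neither called, with a difference of 0.97.

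Col7a1, the anchoring fibril collagen that ties epithelium to the tissue below, was the only collagen gene called lower with density in both genotypes. It went from 15.19 and 15.01 to 12.85 and 12.97 in WT, a 4.57-fold fall, and from 11.55 and 11.40 to 9.77 and 9.70 in KO, a 3.34-fold fall. The KO values lay under the WT values throughout. The summed signal of the 6 epithelial markers also ran downward from WT low, at 484 to 508, over WT high, at 438 to 459, to KO low, at 417 to 436, and KO high, at 413 to 429, and its part in the Col7a1 values was not tested. Krt18 read 6.97 and 7.03 in WT low and 5.96 to 6.36 in the other channels, whereas Krt14, above background in all 8, had density effects of 0.06 in WT and 0.00 in KO. Krt14 apart, no listed epithelial marker was above background in more than 2 channels.

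Among the remaining genes, 2 were called higher in WT and not in KO. Col23a1, a membrane-bound collagen, went from 6.74 and 6.30 to 8.35 and 8.73 in WT, a 4.06-fold rise. In KO its low-density channels were not well above background and it was at least 1.33-fold higher at high density. The measured difference of -1.53, counted among the 9 above, rests on that bound and is not fixed; with the scanner's own corrected signals the effects were 3.75 in WT and 2.71 in KO. Col15a1 rose 2.29-fold in WT and was at least 1.39-fold higher in KO, and with those signals its effects were 2.80 and 2.31, both called. Col18a1, whose product carries the endostatin fragment at its end, had 0.99 in WT, just under 2-fold, and 0.54 in KO.

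Of the basement membrane genes, 0 of 4 measured were called with density in WT and 1 of 5 in KO (against 15.5% and 11.0% of all genes). This was Col4a1, which fell 2.03-fold, from 12.81 and 12.78 to 11.79 and 11.76. All 5 had values under 0 in KO, between -1.02 and -0.06, and in WT the 4 lay between -0.12 and 0.42. The Col4a1 fall sat at the limit of the rule and was -0.98 with the scanner's own corrected signals.

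Between the genotypes, basement membrane and fibril-associated genes had calls higher in KO and 0 lower, while fibrillar and other collagens had calls both ways. These differences compare channels on different arrays, with the slide limit given above, and share channels with the density effects, so that the difference of density effects is exactly the high-density minus the low-density genotype difference and not a further measurement. At low density 11 of 30 collagen genes were higher and 6 lower in KO (56.7% called, against 15.7% of 15255 genes, 7.32% higher and 8.37% lower), with a median of 0.44 beside 0.03 over all genes. At high density 11 of 32 were higher and 5 lower (16 called, against 14.5% of 15621 genes, 6.74% higher and 7.8% lower), with a median of 0.72 beside 0.03. The markers S100b and Actc1 also differed at high density, by -2.44 and 1.36, and their part was not tested. The error of a mean over both dyes, found in the same way, was 0.113 at low and 0.149 at high density. Without scaling between arrays the counts of higher and lower genes were 12 and 4 at low and 16 and 4 at high density, with the median of all genes shifted to 0.27 at both densities. Between densities, 9 genes were called in the same direction and 1, Col5a1, in opposite directions.

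**Figure D3:**
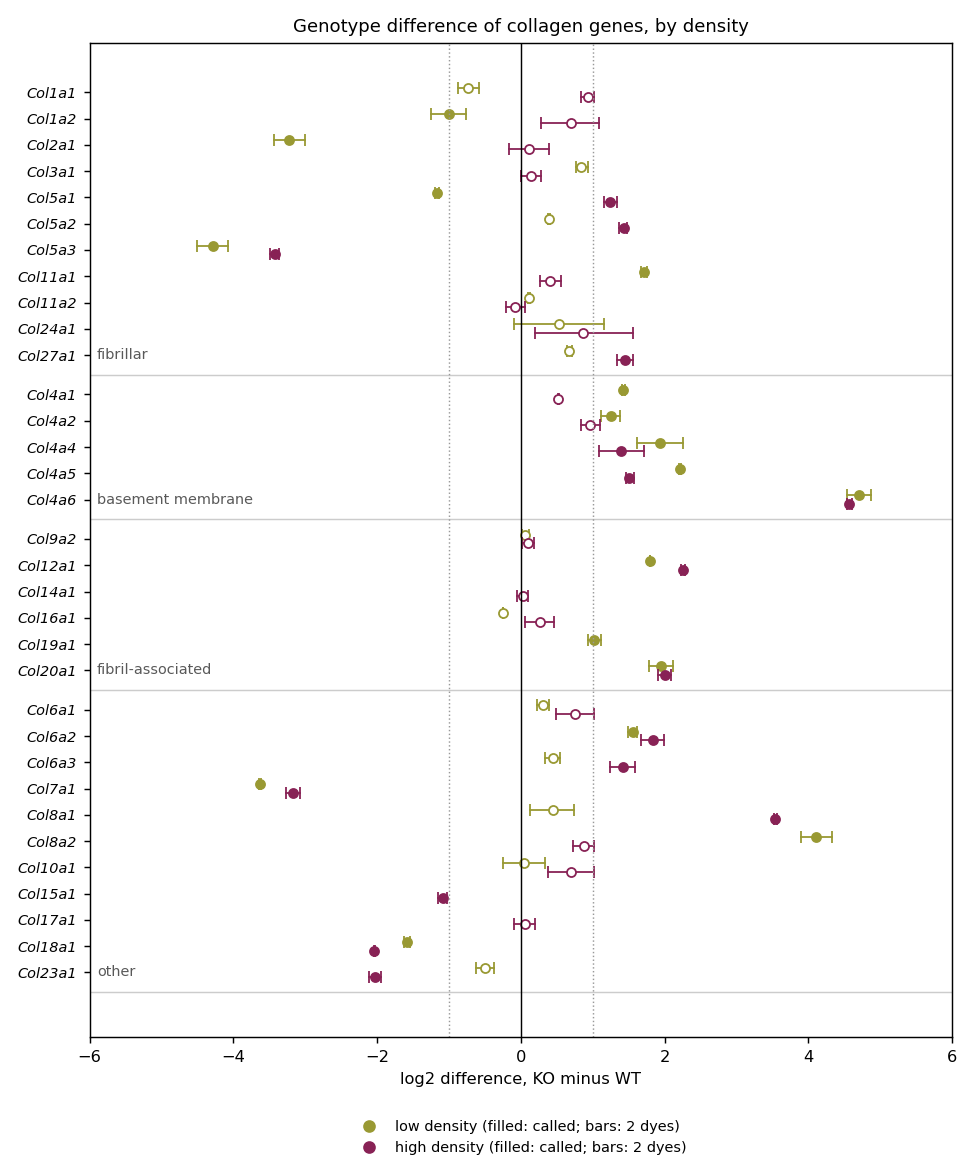
Genotype difference of each collagen gene measured in at least 1 density, as log2 signal of KO minus WT (x axis), with genes grouped by class. Circles are the mean of the 2 dyes at low (olive) or high (purple) density, filled where called, bars join the dyes, and dotted lines mark 2-fold (genes with only a bound are drawn at their measured difference); the 5 basement membrane genes all lie to the right of 0 at both densities.

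All 5 measured type IV genes were called higher in KO at low density (against 7.32% of all genes), with a median of 1.93, and 3 of 5 at high density (against 6.74%), with a median of 1.39. Without Col4a6, which passed the background test through its KO channels alone, 4 of 4 and 2 of 4 were called. Col4a1 and Col4a2, whose chains form the type IV collagen of almost all basement membranes, were 2.68-fold and 2.38-fold higher at low density. At high density their differences were 0.52 and 0.96, not called. Col4a2 read 10.40 and 10.51 at low and 10.36 and 10.36 at high density in WT, and 11.78 and 11.63 at low and 11.19 and 11.46 at high density in KO, so all KO channels lay above all WT channels. A second Col4a1 probe gave 0.25 at low and -0.16 at high density, and with the mean of both probes the Col4a1 difference was 0.84 and not called.

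The minor type IV chains, which form specialised networks in kidney, lung and skin, differed more. Col4a4 was 3.82-fold higher at low and 2.63-fold higher at high density, with dyes at 2.25 and 1.62 and at 1.08 and 1.71. Col4a5 (chromosome X, 136934820 to 136934879, plus strand) read 8.03 and 8.28 at low and 8.60 and 8.55 at high density in WT, and 10.26 and 10.48 at low and 10.06 and 10.12 at high density in KO. It was 4.62-fold and 2.86-fold higher in KO. Col4a6 (chromosome X, 136411815 to 136411874, minus strand) was not well above background in any WT channel of its brightest probe, at 5.95 to 6.08, and read 10.57, 10.82, 10.61 and 10.67 in KO. By this probe it was at least 23.1-fold higher in KO at low density and at least 21.4-fold higher at high density. Another Col4a6 probe was well above background in all 8 channels, WT included, and gave 0.74 at low and 0.54 at high density. The third gave 0.97 and 0.88, and with the mean of the tested probes the differences were 2.14 and 2.0. Endothelial markers, a source of basement membrane collagen in tissue, summed to 347 to 353 in WT low, 321 in WT high, 318 to 325 in KO low and 316 to 318 in KO high channels, with 0 of 5 well above background in KO.

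**Figure D4:**
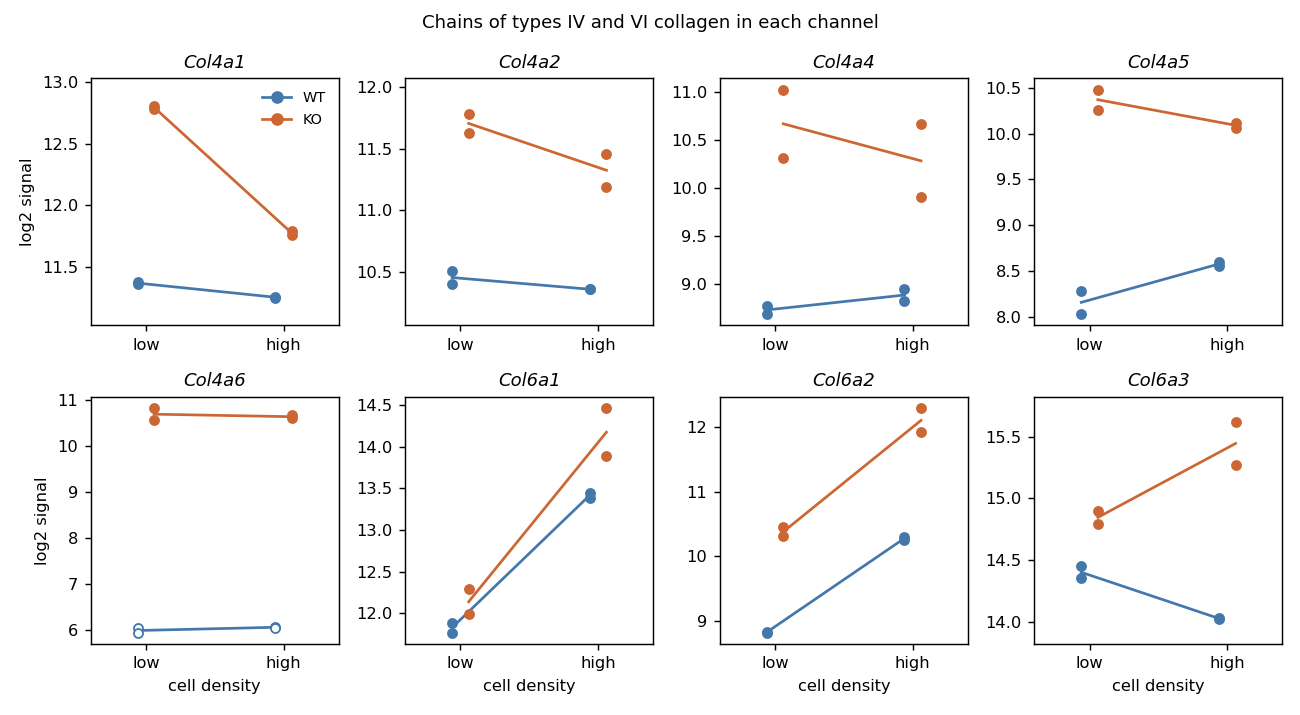
Normalized log2 signal (y axis, a separate scale per gene) of type IV and type VI collagen chains at low and high density (x axis). Points are single channels, 2 dyes per group, open where a group was not well above background in both, lines join the group means, blue is WT and orange KO; KO lies above WT for each type IV chain at both densities, and the lines of Col6a3 slope in opposite directions, neither effect called.

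Type IV genes lie in head-to-head pairs. In the RefSeq windows the starts of Col4a1 and Col4a2 are 21 bases apart on opposite strands, and those of Col4a5 and Col4a6 are 1343 bases apart. The stretches before the starts of the X-linked pair are shown because both genes of the pair were called higher in KO at both densities; capitals mark GGGCGG or CCGCCC. They are Col4a5 (chrX:141475319-141475418, plus strand, GRCm38.p6) and Col4a6 (chrX:141474077-141474176, minus strand), 5′ to 3′.
Col4a5: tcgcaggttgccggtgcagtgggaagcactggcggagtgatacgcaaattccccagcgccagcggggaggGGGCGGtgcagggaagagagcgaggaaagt
Col4a6: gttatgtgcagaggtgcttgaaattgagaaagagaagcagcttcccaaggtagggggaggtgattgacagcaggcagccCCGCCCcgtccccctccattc
Each held 1 copy, and the stretches were 65% and 57% G or C.

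Fibrillar genes did not share 1 direction between genotypes. At low density 1 of 11 was higher and 4 lower in KO (against 7.32% and 8.37% of all genes), with a median of 0.11. With median centring 2 were higher and 3 lower. Without scaling between arrays Col3a1 was called higher, at 1.06, while Col5a1 and Col1a2 were not called, at -0.90 and -0.67. At high density 3 were higher and 1 lower (against 6.74% and 7.8%), with a median of 0.69. Col1a1, Col1a2 and Col24a1 were called higher there as well without scaling between arrays, at 1.14, 1.02 and 1.02. Without array 1 of either genotype they were also called, at 1.01, 1.09 and 1.56. Col5a3 was 19.5-fold lower at low and 10.7-fold lower at high density, the lowest value among the brightest probes of the collagen genes at both. Col2a1 was 9.36-fold lower at low density, with 0.11 at high density, but its overlapping probe gave -5.91 and -3.93, lower at both. Col1a2 was called lower at low density at the 2-fold limit of the rule, with dyes at -1.25 and -0.76, and 0.69 at high density; with the mean of its 2 probes the low-density value was -0.11. Col11a1 was 3.27-fold higher at low density with 0.41 at high density. Col5a1 was 2.25-fold lower at low and 2.36-fold higher at high density, and Col5a2 was 2.69-fold higher at high density. For Col5a1 the low-density value was -0.52 with the mean of its 2 probes.

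Of the fibril-associated genes, 3 of 5 were called higher in KO at low and 2 of 5 at high density (against 7.32% and 6.74% of all genes). Among genes above background in every channel compared, where Col19a1 drops out, 2 of 3 and 2 of 5 were called. Col12a1, found along type I fibrils, read 10.91 and 10.75 at low and 10.28 and 10.41 at high density in WT, and 12.70 and 12.54 at low and 12.52 and 12.69 at high density in KO. It was 3.46-fold and 4.78-fold higher in KO, and by this probe no density effect was called in either genotype. A second Col12a1 probe fell in WT, at -1.08, which passed 2-fold, and gave -0.64 in KO. Col20a1 was 3.86-fold and 4.00-fold higher, and its low-density value went from 1.95 to 3.00 on the log2 scale with the scanner's own corrected signals. Col19a1 was well above background in both channels only in KO cells at low density, and was at least 1.93-fold higher there. Its measured value of 1.02, counted among the calls, was 0.93 and not called without array 2 of either genotype.

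Of the other collagens, 2 of 9 were called higher and 2 lower in KO at low density (against 7.32% and 8.37% of all genes). At high density 3 of 11 were higher and 4 lower (against 6.74% and 7.8%). Col7a1 was 12.3-fold lower in KO at low and 9.02-fold lower at high density. Col18a1 read 11.16 and 11.13 at low and 12.19 and 12.09 at high density in WT, and 9.62 and 9.51 at low and 10.14 and 10.07 at high density in KO, 3.01-fold and 4.12-fold lower. At high density Col23a1 was 4.08-fold and Col15a1 2.13-fold lower in KO. The Col15a1 value, -1.09 on the log2 scale, was -0.91 and not called without scaling between arrays. With the scanner's own corrected signals it was -2.15, and that of Col23a1 went from -2.03 to -3.60. Upward, Col8a2 was 17.2-fold higher at low density and had 0.88 at high density. Col8a1 showed the reverse, with 0.44 at low density and an 11.6-fold higher level at high density. Col6a2 was 2.94-fold and 3.55-fold higher, and Col6a3 2.67-fold higher at high density (0.95 on the log2 scale and not called with the mean of its probes), while Col6a1 was not called, at 0.31 and 0.75. The second Col6a2 probe gave 1.19 at low and 0.82 at high density.

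**Figure D5:**
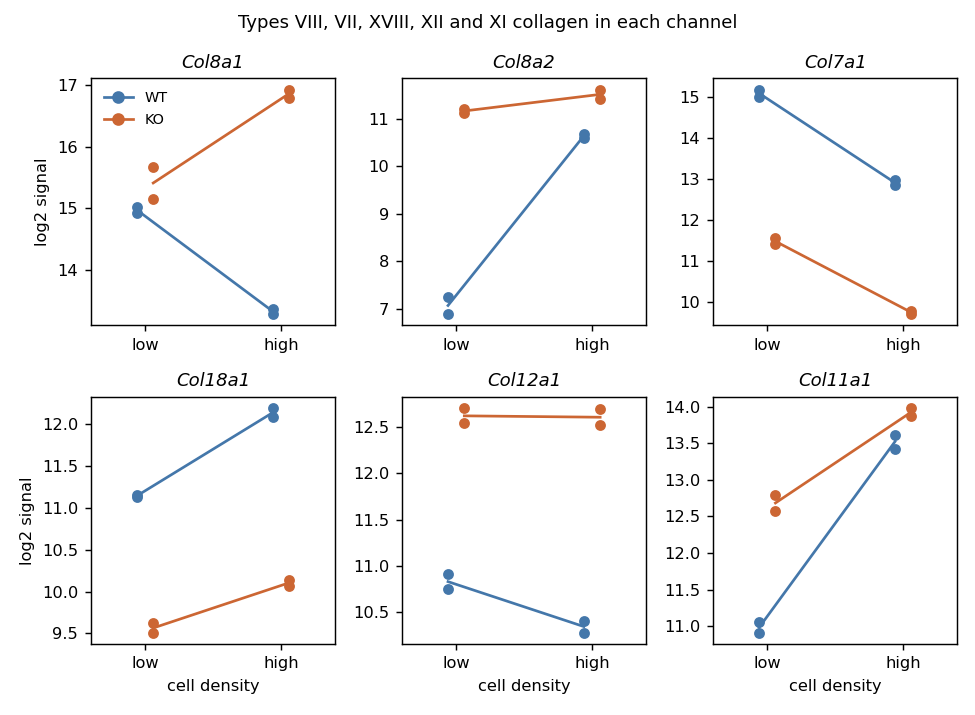
Normalized log2 signal (y axis, a separate scale per gene) of 6 collagen genes at low and high density (x axis). Points are single channels, 2 dyes per group, lines join the group means, blue is WT and orange KO; Col8a1 separates the genotypes at high density and Col8a2 at low density, KO lies below WT for Col7a1 and Col18a1 and above WT for Col12a1, and Col11a1 differs most at low density.

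The genes that modify, process, crosslink and bind collagen were set beside the chains. Of 40 such genes, 3 were higher and 4 lower with density in WT (7 of 32 measured, 21.9%) and 4 higher and 1 lower in KO (5 of 33, 15.2%), against 15.5% and 11.0% of all genes. Among 17 genes of chain modification and folding, which include the prolyl and lysyl hydroxylases, 0 of 15 were called in WT and 1 of 16 in KO, P3h3, a prolyl 3-hydroxylase that the array names Leprel2, at 1.42. Serpinh1, the collagen chaperone HSP47, had -0.14 in WT and 0.84 in KO, a difference of 0.98 that was not called.

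Of the genes that trim procollagen ends, Adamts2, the propeptidase for the amino end, rose in both genotypes, by 1.28 in WT and 1.57 in KO on the log2 scale. Bmp1, the protease for the carboxyl end, rose in KO, at 1.16, with 0.55 in WT. Its relative Tll1 was called lower in both genotypes, at -2.52 in WT and -1.55 in KO. In WT it was not well above background at high density, so the size of that fall is not fixed. Pcolce, an enhancer of Bmp1, rose in WT at 1.06 and had 0.99 in KO. Pcolce2, of the same family, rose in WT, at 1.14, had -0.91 in KO and was higher in KO at both densities, at 3.35 and 1.31.

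Lox, the enzyme that starts collagen crosslinking, differed between genotypes most clearly at high density. It read 12.26 and 12.59 at low and 11.78 and 12.04 at high density in WT, and 13.50 and 13.94 at low and 14.59 and 14.84 at high density in KO. The genotype difference was 1.30 at low and 2.80 at high density, and the density effects, -0.52 and 0.99 without a call in either, differed by 1.51. Of 10 collagen receptors, Itga11, the integrin chain for fibrillar collagen, rose in KO by 1.79 and had 0.43 in WT, and its partner Itgb1 fell in WT, at -1.56. Ddr2, a receptor kinase for fibrillar collagen that also stood on the fibroblast list, was lower in KO at both densities, at -1.10 and -1.57. Other fibroblast markers moved as well, Fn1 with density effects of -1.60 in WT and 1.03 in KO, S100a4 with -0.79 and -2.46, and Pdgfra with a genotype difference of 4.46 at low density. The summed signal of the 7 fibroblast markers was 306000 to 318000 in WT low, 175000 to 231000 in WT high, 333000 to 389000 in KO low and 176000 to 228000 in KO high channels, and their part in the collagen values was not tested. In bulk RNA fewer cells of a type and less RNA per cell cannot be told apart.

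Where a gene had several probes, they mostly pointed the same way. The sign was the same for all compared probes in 14 of 15 genes for the WT density effect, 17 of 18 for the KO effect and 12 of 15 for their difference. For the genotype difference it was the same in 12 of 16 genes at low and 16 of 18 at high density. Size was less stable than sign: a second Col1a2 probe at 4463773 to 4463832 on chromosome 6 gave -0.05 in WT and 0.05 in KO, and a second Col3a1 probe at 45266098 to 45266157 on chromosome 1 gave 1.90 and 1.79, and the remaining Col3a1 probe 0.43 and 0.46. All 3 Col1a1 probes were called higher in KO, at 1.32 to 2.16, with 0.23 to 0.50 in WT. No mm8 gene annotation was used, so the exon or UTR that a probe meets is not given.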

How the data were processed

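The 4 arrays were read from the scanner files, deposited as mean and background intensity per spot and dye, with the authors' Feature Extraction (10.5.1.1, per the file headers) flags. The deposited log10 ratios of the series matrix were the scanner's own dye-corrected ratios with swapped arrays turned, and served as an alternative. Here intensities were background-corrected (normexp, offset 50), loess-normalized within arrays with controls and outliers at weight 0, and Aquantile-scaled between arrays for genotype comparisons (limma 3.58.1, R 4.3.3; Python 3.11.15). Spots of a probe were averaged, and a gene's brightest probe over all channels stood for it; probes lacking a value in any channel, such as the brightest of Col27a1, could not stand for a gene. For a density contrast a probe had to pass the scanner's background test on both arrays in at least 1 density, and for a genotype contrast in both dyes in at least 1 genotype. A probe not well above background in 1 group has a lower bound only, set against the dimmest detected signal per array. With 1 replicate per genotype no test was run, including the methods' t-test; calls are 2-fold with both arrays or dyes of 1 sign, and the small number of arrays limits their precision.

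Named genes are those called in at least 1 contrast and above background in all 8 channels, up to 24 by size, with partner chains and genes with a bound; probe choices outside the rule are second probes of those genes. The members and all lists were chosen with earlier results of these data known. On simulated arrays with 200 probes changed 4-fold in the density contrast of a table of 41174 probes, 66.7% of the measured changed probes in WT and 65.7% in KO were called, and 0 unchanged ones. The unchanged probes were given equal signal in all channels with small technical noise, so that 0 followed from the setting and is not a rate of false calls. A set change of 2 on the log2 scale came out at a median size of 1.61 in WT and 1.62 in KO. Alternatives were centring, offset, the scanner's processed signals, the filter, probe choice, scaling, the threshold and leaving out each array. Promoter sequences are RefSeq's.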

Additional observations from a re-analysis of the deposited data

Results flagged for a closer look

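For 7 collagen genes both WT arrays moved one way with density and both KO arrays the opposite way; with 1 replicate per genotype the difference was not tested. Subtracting the WT density effect from that of KO gave 3.34 on the log2 scale for Col2a1, 3.11 for Col8a1, 2.41 for Col5a1, 1.04 for Col5a2 and 0.97 for Col6a3. In these 5 genes WT was negative and KO positive. The result was -0.69 for Col4a5 and -0.54 for Col4a4, with WT positive and KO negative, and in these 2 genes neither density effect reached 2-fold. In Col5a1 and Col8a1 both genotypes did, although not under every alternative. With the mean of its probes Col5a1 had -0.84 in WT and 0.99 in KO. With median centring the KO effects were 0.70 for Col5a1 and 0.71 for Col8a1, and those of Col5a2 and Col6a3 were -0.21 and -0.06. Under that setting 0 of the 7 genes kept both arrays of each genotype on opposite sides, since at least 1 genotype had arrays of opposite sign. The other Col6a3 probes had 0.02 and -0.22 in KO.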

How the results depend on the processing

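The number of collagen genes called stayed within 1.5 times in all 5 comparisons under every alternative but 1: at a 1.4-fold threshold 20 genes were called for the WT density effect, 23 for the KO density effect and 18 for their difference, while 41.1%, 36.7% and 31.5% of all genes then passed. Genes called higher with density, 13 in KO, were 8 with median centring and 19 with processed signals. In WT they were 8, and 13 with processed signals. The medians moved more. For the WT density effect (0.50) the median was 0.31 with median centring, 0.07 with no filter on dim probes, 0.38 with the mean of all probes and 0.32 to 0.51 without 1 array, the lowest without WT array 1. For the KO effect (0.60) it was 0.91 with offset 16, 1.29 with processed signals and 1.21 with the series matrix. For their difference (0.33) it was 0.00, on the other side of 0, with processed signals, 0.02 with no filter, 0.19 with the mean of all probes and 0.16 to 0.40 without 1 array, the lowest without KO array 2. For the genotype difference at low density (0.44) it was 0.66 with median centring, 0.22 with no filter and 0.69 with no scaling between arrays, where the median of all genes was 0.27, and 0.29 to 0.40 without 1 array, the lowest without array 2 of either genotype. At high density (0.72) it was 0.33 with no filter and 0.34 to 0.83 without 1 array, the lowest again without array 2 of either genotype. The causes were not tested.

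Of 68 calls among the genes described, 46 were measured and kept under every alternative, and no lost call came with a reversed sign. Median centring ended 7, the mean of all probes 11 and no scaling between arrays 3, and they added 5, 3 and 6. Processed signals added 18, the series matrix 9 and offset 16 added 7. Leaving out 1 array ended 1 or 2 and added 2 to 9. No paired analysis was possible because the labels give no replicate numbers and each genotype is 1 replicate; each density effect is already a comparison within an array. The methods' t-test was not run for the same reason.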
